A study of Homo sapiens with 4 samples.

Results

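The 10 genes described here encode regulators of entry into and exit from mitosis, and were chosen by name: the mitotic cyclin genes CCNA2, CCNB1 and CCNB2, the kinase genes CDK1, PLK1, AURKA and AURKB, the phosphatase gene CDC25C, the anaphase activator gene CDC20 and the transcription factor gene FOXM1. All 10 were found among the 56809 genes of the count table, and all 10 were among the 17885 genes with enough counts to be tested. The RNA came from NCI-H929, an established human multiple myeloma cell line, in cells that expressed the nuclease Cas9, and was selected by poly(A) tail before sequencing. Of the 4 libraries, 2 came from cells transduced with a construct that knocks out BCL7A (KO) when doxycycline is added, and 2 from cells given a control construct. Both groups were selected with puromycin for 3 days and then kept in doxycycline at 0.5 ug/ml during 24 h. The titles call the control cells wild type although the treatment protocol gives them a construct, and the labels do not say whether either culture was a clone or a pool. The BCL7A protein belongs to BAF (SWI/SNF) complexes, which remodel chromatin.

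Cyclin B and cyclin A bind CDK1 and switch it on at the start of mitosis, once CDC25 phosphatases have removed the inhibitory phosphates that WEE1 and PKMYT1 place on it. PLK1 and the Aurora kinases then drive centrosome maturation, spindle assembly and chromosome attachment, and CDC20 directs the anaphase-promoting complex to destroy cyclin B and securin so that cells leave mitosis. Transcription of these genes peaks in G2 and M phase, where the MuvB complex with MYBL2 and FOXM1 activates them, and is repressed outside it by the DREAM complex. Myeloma is a plasma cell malignancy in which high expression of such genes marks rapidly proliferating disease.

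Library depth differed with the group: the KO libraries held 38671744 and 40799624 gene counts, the controls 17567202 and 20153596. BCL7A itself was at 1.31 and 1.19 CPM (counts scaled to library size) in the KO libraries and at 42.9 and 45.7 CPM in the control libraries. Of 12 plasma cell markers, 12 rose and their summed level was 13417 to 13433 CPM in the KO and 7856 to 7886 CPM in the control libraries. Of the tested markers of other cell types, 3 of 5 mature B cell markers fell and 1 rose. For T cell markers 4 of 6 fell, and for stromal markers 2 of 2. For epithelial markers 2 of 5 fell and 1 rose, and for myeloid markers 2 of 3 rose and 1 fell. These counts take an adjusted p under 0.05 in edgeR's quasi-likelihood test. By that test 36.4% of all tested genes were higher and 39.8% lower, so counts in such short lists say little by themselves. Summed over 8 mature B cell markers the level was 33.2 to 35.6 against 126 to 134 CPM, over 8 T cell markers 15.7 to 15.8 against 30.5 to 31.6 CPM (CD3D at 0 throughout), and over 8 myeloid markers 57.1 to 59.0 against 27.3 to 31.0 CPM (MPO at 0). Sums were 12.5 to 13.2 against 66.5 to 71.2 CPM for 6 epithelial markers (KRT19 at 0) and 0.352 to 0.456 against 10.99 to 11.07 CPM for 6 stromal markers (LUM at 0). Single markers ran from a log2 fold change of -13.55 (epithelial) to 6.76 (myeloid). With this design, other differences between the KO and control cultures cannot be told apart from the loss of BCL7A. The part of these markers in the results below was not tested.

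Of the 10 mitotic genes, 9 were higher in the KO libraries than in the controls, by 2.12-fold to 7.49-fold, and FOXM1 was 1.71-fold lower. The log2 fold changes (KO over control) of the 9 genes ran from 1.09 to 2.91, and that of FOXM1 was -0.78. With FOXM1 included the median was 1.43, against -0.06 over all tested genes. All 10 passed an adjusted p of 0.05 in edgeR's quasi-likelihood test, where 76.2% of all tested genes passed (36.4% higher and 39.8% lower in the KO libraries). A pass alone therefore says little here. Being called and at least 2-fold higher was rarer, at 9.47% of tested genes, and 9 of the 10 mitotic genes met it. The 10 genes were chosen with earlier results of these data known, so this contrast describes them and tests nothing. In none of the 10 did the CPM of the groups overlap, a property shared by 87.4% of tested genes, 41.3% with the KO higher and 46.1% with the KO lower. Rose and fell below mean higher and lower in the KO libraries. In bulk RNA, a difference in the share of cells in G2 and M phase and a difference in mRNA per cell cannot be told apart.

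**Figure D1:**
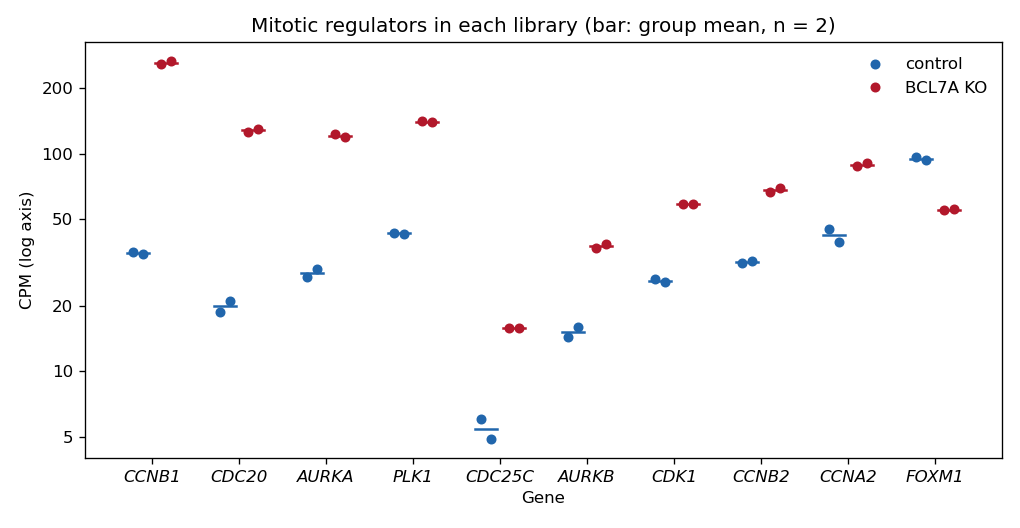
CPM of each gene (log axis) in the 2 control libraries (blue) and the 2 KO libraries (red), with bars at the group means and genes ordered by fold change. The KO libraries lie above the control libraries for CCNB1 to CCNA2, from 7.49-fold to 2.12-fold, and below them for FOXM1.

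The cyclins differed widely in how far they rose. CCNB1, which encodes cyclin B1, the main activator of CDK1 in mitosis (chromosome 5, 69167010 to 69178245, plus strand), was at 258 and 265 CPM in the KO and at 35.4 and 34.4 CPM in the control libraries. Both KO libraries were far above both controls, and the log2 fold change was 2.91 (SE 0.04, adjusted p = 1.23e-29). Only 0.431% of tested genes had a higher log2 fold change than CCNB1. CCNB2 encodes cyclin B2, which is found largely at the Golgi (chromosome 15, 59105078 to 59125045, plus strand). It was at 66.6 and 69.5 CPM against 31.3 and 32.1 CPM (log2 fold change 1.10, SE 0.05, adjusted p = 2.25e-17). CCNA2, which encodes cyclin A2 of S and G2 phase (chromosome 4, 121816444 to 121823933, minus strand), was at 87.3 and 90.6 CPM in the KO libraries. Its control libraries, at 44.8 and 39.2 CPM, were further apart than its KO libraries, and its log2 fold change was 1.09 (SE 0.05, adjusted p = 2.96e-16). CCNB2 and CCNA2 thus rose by about the same amount, 0.01 apart on the log2 scale with a combined SE of 0.07, and both by far less than CCNB1.

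CDK1, the kinase that these cyclins activate (chromosome 10, 60778331 to 60794852, plus strand), was at 58.5 CPM in both KO libraries and at 26.4 and 25.6 CPM in the control libraries. Its log2 fold change was 1.17 (SE 0.05, adjusted p = 2.21e-17), 0.07 above that of CCNB2 with a combined SE of 0.08. The kinase gene thus moved with CCNB2 and CCNA2 rather than with CCNB1. CDC25C encodes a phosphatase that removes the inhibitory phosphates from CDK1 (chromosome 5, 138285265 to 138338355, minus strand). It was the least abundant of the 10, at 15.8 and 15.9 CPM against 6.002 and 4.87 CPM. Its control libraries held only 116 and 108 counts, and its log2 fold change of 1.55 had the largest SE of the 10 genes (0.12, adjusted p = 1.38e-12).

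Among the mitotic kinases, AURKA rose most. AURKA encodes Aurora A, which acts at centrosomes and spindle poles (chromosome 20, 56369389 to 56392337, minus strand), and was at 123 and 119 CPM against 27.0 and 29.4 CPM (log2 fold change 2.10, SE 0.05, adjusted p = 1.58e-24). AURKB encodes Aurora B, the kinase of the chromosomal passenger complex (chromosome 17, 8204733 to 8210600, minus strand), and was at 36.9 and 38.4 CPM against 14.3 and 15.9 CPM (log2 fold change 1.31, SE 0.07, adjusted p = 6.39e-16). PLK1, which encodes Polo-like kinase 1, an activator of CDC25C and of mitotic entry (chromosome 16, 23677656 to 23690367, plus strand), was at 141 and 140 CPM against 43.2 and 42.7 CPM (log2 fold change 1.71, SE 0.04, adjusted p = 3.65e-24). The libraries of a group lay close together for all these kinase genes, and PLK1 stood between the Auroras in its change. CDC20, the activator of the anaphase-promoting complex (chromosome 1, 43358955 to 43363203, plus strand), was at 126 and 130 CPM in the KO and 18.7 and 21.0 CPM in the control libraries. Its log2 fold change of 2.69 (SE 0.05, adjusted p = 3.42e-26) was second to that of CCNB1, with a gap of 0.22 and a combined SE of 0.07. The gene for cyclin B1 and the gene for the factor that has it destroyed were therefore the members that rose most.

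FOXM1, the forkhead factor that activates G2 and M phase genes, went against the other 9. FOXM1 (chromosome 12, 2857681 to 2877155, minus strand) was at 55.05 and 55.48 CPM in the KO libraries and at 96.0 and 93.4 CPM in the control libraries. Both KO libraries were below both controls, with a log2 fold change of -0.78 (SE 0.04, adjusted p = 4.13e-16). Of all tested genes, 71.6% had a higher log2 fold change than FOXM1. Its count totals were close in the groups, at 1933 and 2050 against 1856 and 2073, while the KO libraries were deeper, so the difference rests on the scaling to depth. It ranged from -0.91 to -0.69 over the 14 alternative settings, which include other scalings and KO counts thinned to the depth of the controls. None of these settings scaled by library size alone, and the thinned counts were again scaled by TMM, so the range does not cover plain depth. Without FOXM1, the other 9 genes summed to 912 and 927 CPM in the KO and to 247 and 245 CPM in the control libraries.

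The order of the 10 genes by level also differed between the groups. Levels of different genes were compared as CPM per kilobase of the principal transcript. In the control libraries FOXM1 was highest, at 27.3 ± 0.535 CPM per kilobase (SD, n = 2), followed by CCNB2 at 20.4 ± 0.353 and PLK1 at 19.3 ± 0.156. CCNB1 was next at 16.1 ± 0.332 CPM per kilobase, ahead of CCNA2, CDK1, AURKA, AURKB, CDC20 and CDC25C. In that order CCNB1 and CCNA2, AURKA and AURKB, and AURKB and CDC20 overlapped between libraries, and the other neighbours did not. In the KO libraries CCNB1 was highest at 121 ± 2.55 CPM per kilobase, followed by CDC20 at 72.1 ± 1.64, PLK1 at 63.0 ± 0.254 and AURKA at 53.7 ± 1.21. CCNB2, CCNA2, AURKB and CDK1 came next, and only CCNA2 with AURKB and AURKB with CDK1 overlapped. FOXM1 stood next to last there at 15.9 ± 0.0891 CPM per kilobase, above only CDC25C at 7.43 ± 0.0279. As a share of the summed level per kilobase of the 10 genes, CCNB1 was 25.7% in the KO and 10.7% in the control libraries, and FOXM1 was 3.39% against 18.1%. PLK1 held nearly the same share in both groups, at 13.4% and 12.8%.

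**Figure D2:**
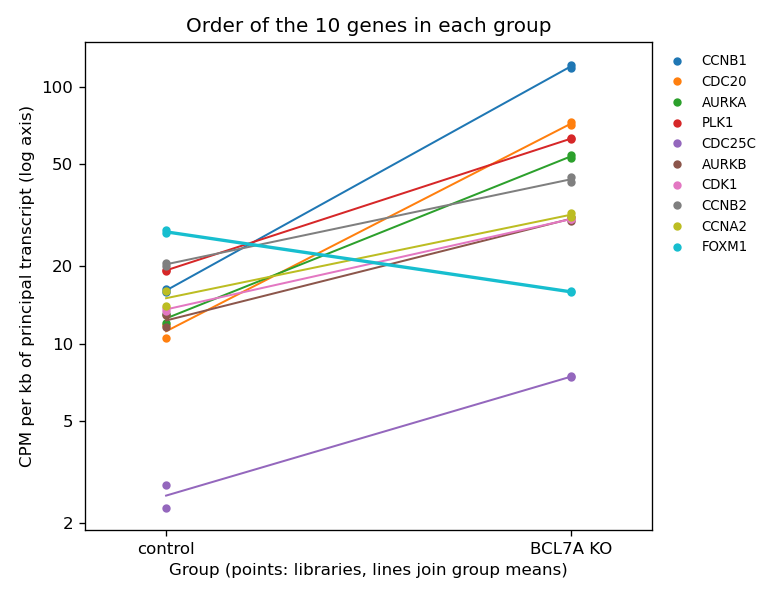
CPM per kilobase of principal transcript (log axis) of the 10 genes in the control and the KO libraries. Points are libraries and lines join the group means. The FOXM1 line runs down, from 27.3 to 15.9, and the other 9 lines run up, that of CCNB1 from 16.1 to 121.

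Ratios within a library do not depend on its scaling. The log2 ratio of CCNB1 to CCNB2 was 1.95 and 1.93 in the KO libraries and 0.18 and 0.10 in the control libraries. The log2 ratio of CCNB1 to CCNA2 was 1.56 and 1.55 against -0.34 and -0.19, and that of CCNB1 to CDK1 was 2.14 and 2.18 against 0.43 and 0.43. Cyclin B1 mRNA was thus higher relative to the other mitotic cyclins and to their kinase in both KO libraries. The log2 ratio of AURKA to AURKB was 1.73 and 1.63 against 0.92 and 0.89. By contrast, the log2 ratio of CDC20 to CCNB1 differed little, at -1.03 in both KO libraries and -0.92 and -0.71 in the control libraries. The widest shift was in PLK1 to FOXM1, at 1.35 and 1.33 against -1.15 and -1.13. No library of one group overlapped the other in any of these 6 ratios, but 2 libraries against 2 cannot give an exact permutation p below 0.333, so the ratios were not tested.

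The promoters of genes of this program often carry CCAAT boxes, bound by NF-Y, and a cell cycle homology region (CHR), bound by MuvB. Because 9 of the 10 genes moved together, promoter windows of 300 bases (250 before to 50 after the RefSeq start, GRCh38.p14) were searched on both strands for CCAAT, for the CHR letters TTTGAA or TTCGAA, and for the E2F letters TTCCCGC or TTGGCGC. The table held windows for 8 of the 10 genes, 13 windows in all, and a gene was counted when any of its windows matched. AURKA and FOXM1 had none, so the gene that fell could not be set beside those that rose. Because such motifs are already known in this program, the matches describe the promoters and say nothing about the KO. CCAAT was found in 8 of 8 genes, against 39.7% of 27305 genes with a window, and at least 2 CCAAT in 5 of 8 against 12.9%. CHR letters were found in 5 of 8 (CCNB2, CDK1, CDC20, CDC25C and PLK1) against 19.5%, and E2F letters in 2 of 8 (CDK1 and CDC25C) against 10.96%. CDK1, CDC25C and AURKB have several windows, which raises their chance of a match. CCAAT read on the opposite strand can share letters with TTGGCGC. The 250 bases before the start are shown 5′ to 3′ for the cyclin genes, CDC20 and PLK1, which have a single window each and span the smallest and largest increases, with CCAAT and CHR matches on either strand in capitals. The positions are chr5:69166900-69167149 (plus strand) for CCNB1, chr1:43358731-43358980 (plus) for CDC20, chr16:23678639-23678888 (plus) for PLK1, chr15:59104896-59105145 (plus) for CCNB2 and chr4:121823884-121824133 (minus) for CCNA2.
CCNB1: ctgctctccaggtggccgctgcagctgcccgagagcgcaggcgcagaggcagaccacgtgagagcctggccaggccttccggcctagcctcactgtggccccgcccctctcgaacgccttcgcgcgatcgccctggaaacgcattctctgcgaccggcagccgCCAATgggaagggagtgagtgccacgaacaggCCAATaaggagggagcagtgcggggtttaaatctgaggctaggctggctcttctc
CDC20: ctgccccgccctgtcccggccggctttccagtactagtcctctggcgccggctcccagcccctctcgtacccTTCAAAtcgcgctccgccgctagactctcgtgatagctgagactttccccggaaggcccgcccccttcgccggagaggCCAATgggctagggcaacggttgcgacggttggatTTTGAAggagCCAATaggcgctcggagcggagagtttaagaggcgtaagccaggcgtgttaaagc
PLK1: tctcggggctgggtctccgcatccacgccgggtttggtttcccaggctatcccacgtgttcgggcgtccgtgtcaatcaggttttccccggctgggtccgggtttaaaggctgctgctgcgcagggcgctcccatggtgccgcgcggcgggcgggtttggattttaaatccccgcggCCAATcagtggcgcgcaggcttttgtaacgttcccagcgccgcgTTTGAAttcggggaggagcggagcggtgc
CCNB2: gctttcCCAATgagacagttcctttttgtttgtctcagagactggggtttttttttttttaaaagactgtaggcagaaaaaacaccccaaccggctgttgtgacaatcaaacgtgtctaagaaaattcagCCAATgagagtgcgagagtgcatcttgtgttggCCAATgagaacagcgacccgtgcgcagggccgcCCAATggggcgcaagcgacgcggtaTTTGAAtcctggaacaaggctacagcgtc
CCNA2: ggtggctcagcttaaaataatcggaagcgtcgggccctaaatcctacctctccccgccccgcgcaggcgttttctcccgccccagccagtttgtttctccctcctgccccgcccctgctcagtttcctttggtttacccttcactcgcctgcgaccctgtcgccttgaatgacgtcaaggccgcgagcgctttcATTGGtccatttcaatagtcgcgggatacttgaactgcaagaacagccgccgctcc
CCNB1 holds CCAAT starting 87 and 55 bases before the RefSeq start, and CCNB2 holds it at 244, 120, 87 and 54 bases. CDC20 has CCAAT at 100 and 55 bases, PLK1 at 73 bases, and CCNA2 has it on the opposite strand at 56 bases. In both PLK1 and CCNB2, TTTGAA begins 29 bases before the start. CDC20 has TTTGAA at 65 bases and, on the opposite strand, at 178 bases. CCNB1, which rose most, and CCNA2, which rose least of the 9, both lack these exact CHR letters in the window. Other spellings of the CHR were not searched, so the absence of these letters does not show that either promoter lacks a CHR.

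Chromosomes differed in their median change, so each gene was set beside its nearest protein-coding genes, 20 on either side, counting those that averaged 10 CPM or more. FOXM1 lies near a chromosome end and had 29 such neighbours, and the other members had 40. Over these neighbours the median log2 fold change was 0.82 for CCNB1 and 0.78 for CDC25C, both on chromosome 5, whose median was 0.74, while the median over all such genes was 0.20. CCNB1 lay 2.09 above its neighbours, and 0 of the 40 had a higher log2 fold change. CDC25C lay 0.77 above its neighbours, 2 of which were higher. Neighbours of CDC20 (0.66), AURKB (0.56) and AURKA (0.47) were also above 0.20, and those of CCNA2 (0.21), PLK1 (0.07), CDK1 (0.00) and CCNB2 (-0.11) were not or hardly so. Relative to neighbours, the 9 genes were higher by 0.75 (AURKB) to 2.09 (CCNB1). With 10 neighbours on each side the range was 0.80 (CDC25C) to 2.29 (CCNB1), and with 40 it was 0.80 (AURKB) to 2.08 (CCNB1). FOXM1 lay 0.80 below a neighbour median of 0.02, and 26 of its 29 neighbours had a higher log2 fold change. That neighbour median was 0.33 over 19 genes, when up to 10 were taken on each side, and -0.12 over 49 genes, when up to 40 were. The part of chromosome position in these changes was not tested.

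**Figure D3:**
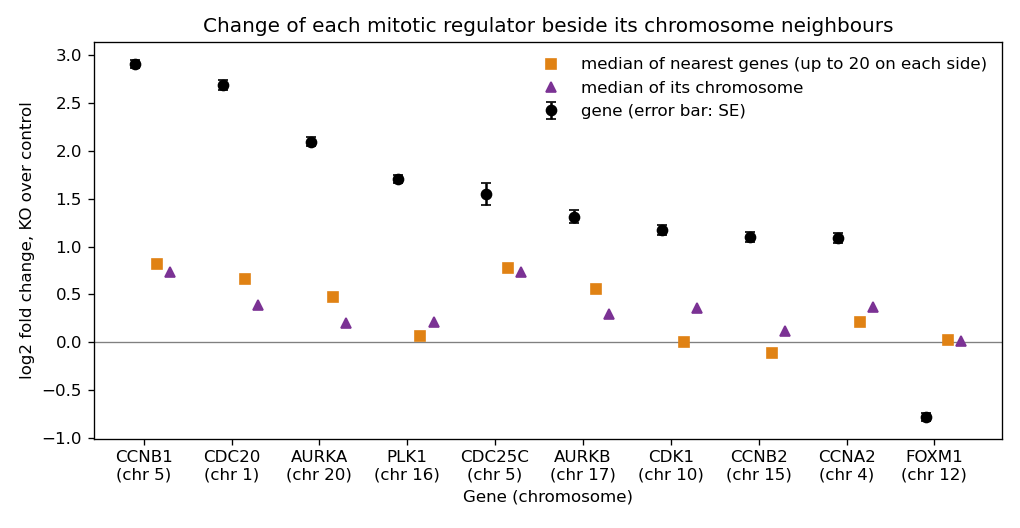
Log2 fold change (KO over control) of each gene with its SE (black), the median of its nearest expressed protein-coding genes (orange squares, 40 genes, or 29 for FOXM1) and the median of its chromosome (purple triangles). CCNB1 stands 2.09 above its neighbours, AURKB 0.75 above them and FOXM1 0.80 below them.

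Pseudogenes and overlapping genes that could share reads with the members were also measured. AURKAP1, a pseudogene of AURKA, held 41 and 38 counts in the KO and 24 and 17 in the control libraries, and the pseudogenes AURKAP2, CCNB2P1 and CDC20P1 held at most 4 counts in a library. CCNA2 overlaps EXOSC9, an RNA exosome gene on the opposite strand, which was itself higher (log2 fold change 0.72, SE 0.05). CDC25C overlaps FAM53C on the opposite strand, which also rose (0.68, SE 0.04) and was more abundant than CDC25C, at 105 and 102 CPM in the KO libraries. FOXM1 overlaps RHNO1 and ITFG2 on the opposite strand. RHNO1, a DNA damage checkpoint gene, fell by 0.21 on the log2 scale (SE 0.07, adjusted p = 0.00993), and ITFG2 had a log2 fold change of 0.11 (SE 0.08, adjusted p = 0.203). How the counting treated strand is not stated in the labels, so the values of CCNA2, CDC25C and FOXM1 are uncertain by what these genes could contribute.

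Other genes of the pathway also rose more often than they fell, except in the forkhead list, with lower list medians than the 10. Over all tested genes 36.4% were higher and 39.8% lower, with a median log2 fold change of -0.06. Over protein-coding genes that averaged 10 CPM or more, the median was 0.20. The lists below were also chosen with earlier results of these data known. Of 17 tested partners and regulators of CDK1, 12 rose and 3 fell (median log2 fold change 0.54). CDKN1A, the p53-induced CDK inhibitor p21, rose to 346 ± 0.132 from 145 ± 5.76 CPM. CDC25B, a CDC25C paralog, rose (log2 fold change 1.01, SE 0.04), and CDC25A did not pass (0.12, SE 0.06, adjusted p = 0.0676). WEE1, which inhibits CDK1, fell to 54.9 ± 1.64 from 73.1 ± 0.636 CPM, as did CDK2 (-0.54, SE 0.06) and the inhibitor gene CDKN1B (-0.88, SE 0.05). The inhibitor genes thus moved both ways. WEE1 and CDKN1B fell, while CDKN1A rose, as did PKMYT1, the other inhibitory kinase of CDK1 (0.31, SE 0.06).

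Of 15 tested partners of the Polo and Aurora kinases and related mitotic or Polo-like kinases, taken as 1 list, 14 rose, with a median of 1.19. TPX2, the activator of Aurora A, was at 298 ± 2.51 against 105 ± 1.55 CPM. INCENP and CDCA8 of the chromosomal passenger complex rose by 1.23 (SE 0.04) and 1.38 (SE 0.06), and BIRC5, survivin of the same complex, by 0.81 (SE 0.05). Only CEP192, a centrosome scaffold that recruits PLK1 and Aurora A, fell in this list (-0.62, SE 0.06). Among 25 genes of the anaphase-promoting complex and its regulators, 20 rose and 2 fell, with a median of 0.52. UBE2C, a ubiquitin-conjugating enzyme of the complex, was at 130 ± 2.00 against 38.9 ± 0.0818 CPM, while UBE2S, its other such enzyme, rose by 0.66 (SE 0.04). PTTG1, securin, rose by 1.67 (SE 0.07). FZR1, the activator that replaces CDC20 after anaphase, rose by only 0.34 (SE 0.06), and the core subunit gene CDC16 on chromosome 13 fell by 1.29 (SE 0.04).

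Of 14 tested genes of the phosphatases that reverse phosphorylation by CDK1, and of their control, 10 rose and 4 fell (median 0.36). MASTL, the Greatwall kinase that holds PP2A-B55 off during mitosis, rose by 1.55 (SE 0.08), PPP2CA by 1.01 (SE 0.03), and CDC14B fell by 1.82 (SE 0.07). Among 20 MuvB, DREAM, MYB and E2F regulators, 12 rose and 5 fell (median 0.51). MYBL2, the MuvB partner, was at 291 ± 1.05 against 185 ± 4.05 CPM, so that MYBL2 and FOXM1 moved in opposite directions. E2F1 and RB1 rose by 0.60 (SE 0.05) and 0.62 (SE 0.04), and RBBP4 by 1.08 (SE 0.03). Both E2F dimer partners fell, TFDP1 by 1.02 (SE 0.03) and TFDP2 by 2.79 (SE 0.05). TFDP1 lies on chromosome 13 (113584721 to 113641470) close to CDC16 (114234887 to 114272723), which also fell, and TFDP2 on chromosome 3. PPP2CA lies on chromosome 5, as do PTTG1 above and KIF20A and VDAC1 below. The median of that chromosome was 0.74, over protein-coding genes that averaged 10 CPM or more. The part of position in these changes was not tested.

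Of 32 other G2 and M phase genes of the FOXM1 and MuvB program, 30 rose and 1 fell, with a median of 1.02, and 17 of them rose at least 2-fold. KIF20A, a cytokinesis kinesin, was at 112 ± 0.823 against 15.8 ± 0.0239 CPM, an increase of the size seen for CCNB1 and CDC20, whereas MKI67, the proliferation marker Ki-67, was at 546 ± 4.81 against 415 ± 21.1 CPM. CDCA3, which takes part in the destruction of WEE1, fell (-0.55, SE 0.08). Genes of G1 and S phase were more mixed, with 12 of 20 higher and 5 lower (median 0.35). CCND2, cyclin D2, rose by 3.67 (SE 0.05) and CCND1, cyclin D1, fell by 1.83 (SE 0.03). The replication clamp gene PCNA did not pass (0.07, SE 0.04, adjusted p = 0.0983). Of 10 other forkhead genes, 4 rose and 6 fell (median -0.41), where 36.4% of all tested genes were higher and 39.8% lower. FOXP1 fell by 2.57 (SE 0.08) and FOXO3 rose by 0.43 (SE 0.03).

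**Figure D4:**
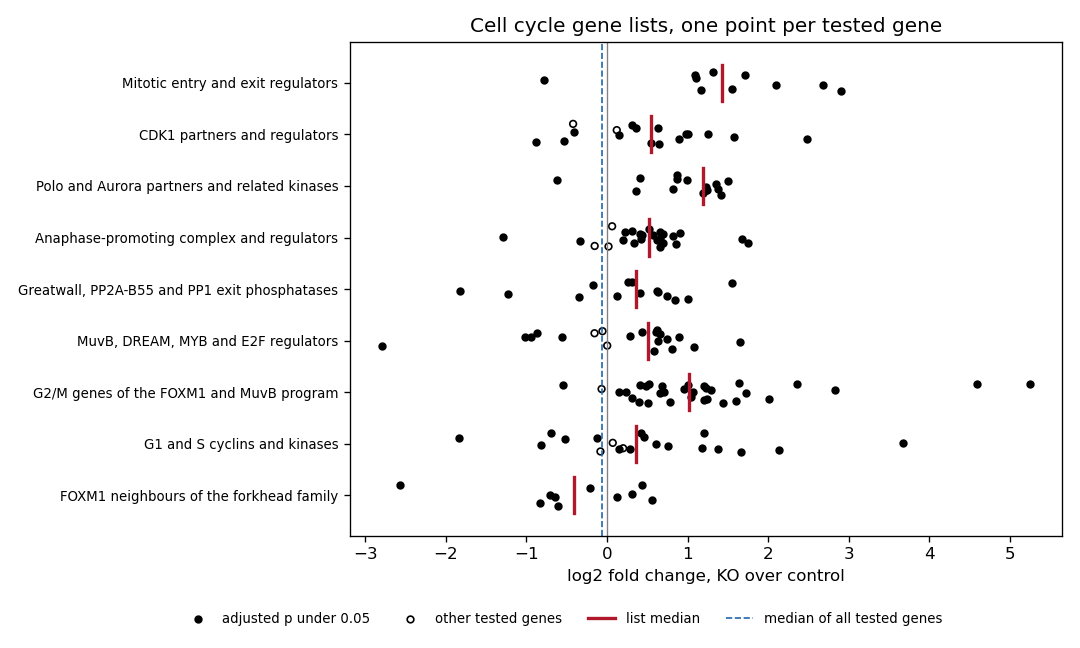
Log2 fold change (KO over control) of each tested gene in 9 cell cycle lists. Filled points passed an adjusted p of 0.05, open points did not, red bars are list medians and the dashed line is the median of all tested genes at -0.06. The list medians run from -0.41 for the forkhead genes to 1.43 for the 10 mitotic regulators.

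The genes whose values over the 4 libraries lay nearest to the mean of the 10 mitotic genes were VDAC1, LAP3, RBM47, NABP1 and RAPGEF5, by Euclidean distance of centred log2 CPM (0.0157 to 0.0280). VDAC1, a mitochondrial outer membrane channel, was nearest, at 382 ± 1.62 against 138 ± 0.265 CPM. With 2 groups of 2 libraries this measure mostly reads the size of the difference, and 295 of the 9527 genes compared lay within a distance of 0.25.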

How the data were processed

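The deposited table holds estimated counts for each gene. The authors used Salmon 0.12 and GRCh38, per the submitters' processing notes. All values were whole numbers and were taken as deposited. The sources used here give neither the annotation nor the strand setting. All 56809 symbols match GENCODE release 29, which gave positions and the principal (APPRIS) transcript lengths. A further 92 spike-in rows, with at most 5 counts in a library in sum, were left out.

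Genes were filtered with filterByExpr, scaled by TMM (factors of 0.909 and 0.906 for the KO libraries, 1.10 for both controls) and compared with edgeR 4.0.16 (glmQLFit with robust=TRUE, glmQLFTest) without covariates, on 2 libraries a group. Relative to plain library size, the TMM factors raised CPM in the KO libraries and lowered it in the controls. P-values were adjusted by Benjamini-Hochberg over 17885 tested genes, with a threshold of 0.05. The SE is the absolute log2 fold change over the square root of F. The scripts were tested on simulated data. The 2 libraries within a group differed beyond sampling noise, with a chi-square of 1.77 (KO) and 2.37 (control) per degree of freedom, and were kept as 2 replicates. The labels do not name separate cultures, so the p-values rest on a spread that may be technical only.

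The 10 members and the 16 gene lists (221 entries, all matched) were chosen with earlier results of these data known. Named genes were the members, a fixed set of regulators, the gene with the smallest p in each direction of each list, and the 5 genes nearest the members' mean. Other genes named were chosen after their values were seen. Lists are described, not tested. The result of 1 marker list is not reported here. Alternatives were RLE or upper-quartile factors, dropping or tightening the count filter, DESeq2 1.42.0, limma-voom (limma 3.58.1), a replicate block, no robust shrinkage, a threshold of 0.01, thinned KO counts and each library left out.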

Additional observations from a re-analysis of the deposited data

How the results depend on the processing

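Each of the 10 mitotic genes kept its direction and stayed past the threshold under all 14 alternatives, so that 10 passed in each, 9 higher and 1 lower. CCNB1 ranged from 2.77 to 2.99, CDC20 from 2.55 to 2.77, CCNA2 from 0.95 to 1.18 and FOXM1 from -0.91 to -0.69 on the log2 scale. With upper-quartile factors CCNA2 was at 0.95 and CCNB2 at 0.97, just under the 2-fold increase that both reached in the main fit. No alternative scaled by library size alone. The median of the 10 moved from 1.43 to 1.30 with upper-quartile factors, 1.51 with no filter and 1.37 with the stricter filter, and ran from 1.38 to 1.47 when each library was left out in turn; the cause was not tested beyond the shift of scale. Upper-quartile factors moved the median of all tested genes from -0.06 to -0.19. With them 4 rather than 2 anaphase-promoting complex genes fell, 8 rather than 5 MuvB, DREAM and E2F regulators, and 2 rather than 1 of the other G2 and M phase genes; the cause was not tested. With the replicate block, 13287 genes passed against 13629 without it, 10 of the mitotic genes among them in both fits, and it changed no call on the named genes. Deviations of libraries with the same number correlated at 0.00148, and the labels do not say that numbers pair libraries. Depth limits CDC25C most, with 108 to 116 counts in the control libraries.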
